A study of Mus musculus with 17 samples.

Results

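The genes described are 10 chaperones and calcium-binding folding helpers of the endoplasmic reticulum (ER), measured by RNA-seq in cultured mouse lung fibroblasts: Hspa5, Hsp90b1, Calr, Canx, Pdia3, Pdia4, Pdia6, Calu, Rcn1 and Rcn3, taken by gene symbol from the 55421 genes of the deposited count table. Each symbol matched 1 row, and all 10 were among the 10481 genes that passed the filter on low counts. The filter kept a gene with a CPM (its count scaled to the size of the library) above 10 in at least 2 libraries.

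All 17 libraries came from mice carrying Ephb4f/f; Col1a2-CreERT2, in which Cre is driven by the Col1a2 promoter and is active after 4-hydroxytamoxifen. The Ephb4 CKO mice received 4-hydroxytamoxifen at 1 mg a day for 5 days from 4 weeks of age. The Ephb4 control mice, with the same alleles, received corn oil instead. No mice without Cre received 4-hydroxytamoxifen, so its own effect and that of the deletion cannot be told apart. At 6 weeks of age the mice received bleomycin, an agent that injures the lung and leads to fibrosis, at 1.2 U/kg, or PBS. Lung cells were isolated 14 days later, grown in serum-containing medium and passaged once, with no treatment in culture. There were 4 Ephb4 control PBS mice, 4 Ephb4 control bleomycin mice, 5 Ephb4 CKO PBS mice and 4 Ephb4 CKO bleomycin mice, and each library was 1 mouse. The cultures were not sorted, so a library could hold any lung cell that survives 1 passage. The mice are numbered here within each group in the order in which the samples were listed.

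The ER is where secreted and membrane proteins, procollagen among them, are folded before they leave for the Golgi. Hspa5 (BiP) and Hsp90b1 (GRP94) are the lumenal members of the Hsp70 and Hsp90 families. Calreticulin (Calr) and calnexin (Canx) are the lectin chaperones that hold newly made glycoproteins, and Pdia3, Pdia4 and Pdia6 are protein disulfide isomerases, which form and reshuffle disulfide bonds. Calumenin (Calu) and the reticulocalbins (Rcn1, Rcn3) belong to the CREC family of calcium-binding proteins with EF-hands in the secretory pathway. Misfolded protein in the ER sets off the unfolded protein response, in which ATF6 and spliced XBP1 raise the transcription of many chaperone genes through the ER stress response element (ERSE).

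The closest matches to this element in the promoters are shown first, because the response acts on chaperone genes through it. A 300-base RefSeq window (GRCm38.p6), from 250 bases before the gene start to 50 after it, was found for 9 of the 10 genes, all but Rcn1. The ERSE was searched as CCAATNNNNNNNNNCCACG on both strands. In the matches below, the capitals mark the bases that fit its 10 fixed positions, written 5′ to 3′ on the strand that carries the element.
Hspa5 (chr2:34772025-34772043): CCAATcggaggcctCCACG
Hsp90b1 (chr10:86705533-86705551): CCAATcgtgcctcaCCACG
Hsp90b1 (chr10:86705638-86705656): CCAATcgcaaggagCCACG
Calr (chr8:84847075-84847093): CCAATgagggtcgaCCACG
Canx (chr11:50325800-50325818): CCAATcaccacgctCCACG
Pdia6 (chr12:17266491-17266509): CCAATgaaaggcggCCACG
Pdia3 (chr2:121413873-121413891): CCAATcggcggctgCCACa
Pdia4 (chr6:47813602-47813620): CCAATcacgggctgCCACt
Calu (chr6:29347858-29347876): CCAAggtcagcgagCCgCG
Rcn3 (chr7:45092171-45092189): CCAgTtaagctcctCCACc

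An exact match was present in 39 of 32851 promoter windows (0.119%) and in 5 of the 9 windows of these genes, with 2 in Hsp90b1. The response is known to act on chaperone genes through this element, so its presence in their windows was not a test. The Hspa5, Pdia6 and Canx matches ended 46, 79 and 126 bases before the RefSeq start site, and the Calr match ended 143 bases before it. With at most 1 mismatch, 494 windows (1.5%) held the element, and Pdia3 and Pdia4 joined the other 5, so that all 7 chaperone and isomerase genes had it. The closest stretches in Calu and Rcn3 had 2 mismatches each, and the one in Rcn3 lay after the start site. The shorter CCAAT, which is part of the ERSE, was in all 9 windows and in 37.4% of all windows. The UPRE, another site of the response, was searched only as TGACGTGG on both strands. That exact string was in none of the 9 windows and in 0.676% of all windows. The Hspa5 window holds TGACGTGA, which differs in the last base. The Pdia6, Calu and Rcn3 windows hold GGACGTGG, which differs in the first base. Such forms were not counted. A match is a string of letters in a window, and binding was not measured here.

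By GENCODE annotation on GRCm38, Hspa5 lies at chr2:34771970-34777547 on the plus strand, Calu at chr6:29348069-29377110 on the plus strand, Rcn1 at chr2:105386291-105399319 on the minus strand and Rcn3 at chr7:45082913-45092221 on the minus strand. GENCODE and RefSeq starts can differ. The ERSE match of Hspa5, which is before the RefSeq start, lies inside the GENCODE gene. Exons of 2 of the genes overlapped an annotated gene on the same strand, between which the counting could divide reads. These were Hsp90b1, with Gm15344 at 23 to 107 counts a library and Gm25745 at 1 count in every library, and Pdia4, with Mir704 at 1 to 4 counts. Calr has a named pseudogene, Calr-ps, which held 0 to 8 counts in any library.

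Before the results, several features of the libraries bear on all of them. Libraries held 66540022 to 120554468 counted reads, with a median of 93075927. Ephb4 itself was between 2.32 and 33.4 CPM in control PBS, 13.1 and 65.1 in control bleomycin, 4.01 and 23.6 in CKO PBS, and 4.93 and 14.0 in CKO bleomycin libraries. The control and CKO libraries overlapped under both treatments. After bleomycin, the log2 fold change of Ephb4 in CKO against control was -2.0 ± 0.792 (SE), with an adjusted p of 0.22 in edgeR. After PBS it was -0.73 ± 0.722. Sex-linked genes went against the labelled sex in 3 libraries, namely control bleomycin mouse 2 and CKO bleomycin mice 1 and 2. The labels name primary fibroblasts, but macrophage genes were abundant: the 19 macrophage markers, all kept by the filter, summed to 10420 to 45860 CPM in control PBS, 1341 to 21120 in control bleomycin, 24230 to 43430 in CKO PBS and 24000 to 43740 in CKO bleomycin. The 14 fibroblast markers, of which 12 were kept, summed to 45.8 to 7811 CPM in control PBS, 7269 to 13670 in control bleomycin, 93.4 to 2393 in CKO PBS and 76.2 to 2409 in CKO bleomycin, and no marker of either list was at 0 throughout a group. In such bulk libraries, fewer cells of a type and less RNA per cell cannot be told apart.

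To rank the genes by level, values were taken per length, as FPKM, which divides CPM by exon length in kilobases. In control bleomycin libraries, Calr was highest at 320 ± 36.9 FPKM (mean ± SD, n = 4), followed by Hspa5 at 187 ± 38.7. Hsp90b1 (144 ± 55.1), Canx (129 ± 25.5), Calu (127 ± 19.8), Rcn3 (118 ± 55.5), Pdia3 (107 ± 14.2) and Pdia4 (103 ± 13.2) followed, each within 1 SD of the next. Pdia6 (80.8 ± 19.0 FPKM) and Rcn1 (49.8 ± 12.7 FPKM) were lowest. In CKO bleomycin libraries, the order of the first 4 was Calr (291 ± 92.3 FPKM), Hspa5 (134 ± 29.4), Canx (106 ± 14.9) and Hsp90b1 (87.1 ± 5.80). Calu stood there at 55.7 ± 11.7 FPKM, Rcn3 at 14.7 ± 20.7 and Rcn1 at 8.40 ± 10.2. Rcn3 was thus at the level of the disulfide isomerases in the control bleomycin cultures and its mean was below each of theirs in the CKO bleomycin cultures.

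The 10 genes fell into steady and variable transcripts. Over the 17 libraries, the most abundant was at most 4.05 times the least abundant for 8 of them, from 1.79 times for Pdia3 (209 to 375 CPM) to 4.05 times for Calu (173 to 699 CPM). Rcn1 ran from 4.00 to 214 CPM, a 53.5-fold range, and Rcn3 from 1.3 to 342 CPM, a 262-fold range. On the log2 CPM scale, the SD over libraries was 2.01 for Rcn1 and 2.79 for Rcn3, against 0.26 for Pdia3, 0.48 for Hspa5, 0.58 for Calu and a median of 0.44 over all genes tested. The 2 widely spread genes were both reticulocalbins.

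**Figure D1:**
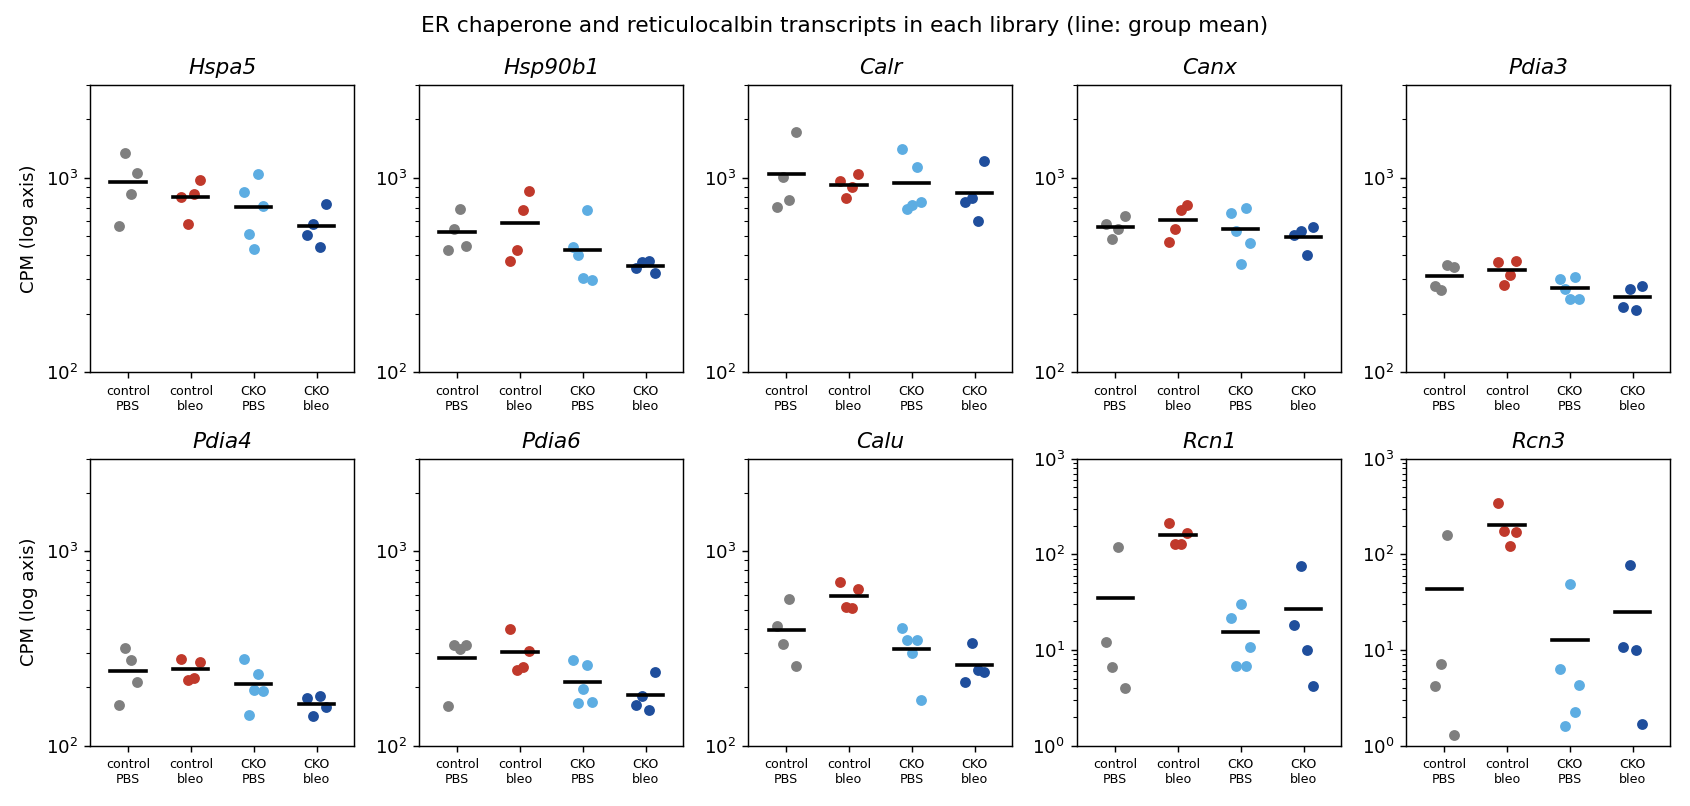
Each panel plots 1 gene in CPM on a log axis, with each point 1 library and each line the mean of its group (4 libraries, 5 for CKO PBS). Rcn1 and Rcn3 spread over 53.5-fold and 262-fold, while the other 8 genes, whose axis covers fewer decades, spread over at most 4.05-fold.

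Rcn3 was 4.22, 7.18, 161 and 1.3 CPM in control PBS mice 1 to 4, and 342, 175, 124 and 173 CPM in control bleomycin mice 1 to 4. It was 6.33, 1.59, 48.5, 2.23 and 4.36 CPM in CKO PBS mice 1 to 5, and 10.8, 78.0, 10.1 and 1.69 CPM in CKO bleomycin mice 1 to 4. Every control bleomycin library was high, and each other group had 1 library far above its fellows: control PBS mouse 3, CKO PBS mouse 3 and CKO bleomycin mouse 2.

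Rcn1 was 12.2, 6.71, 119 and 4.00 CPM in control PBS mice 1 to 4, and 214, 128, 128 and 167 CPM in control bleomycin mice 1 to 4. In CKO PBS mice 1 to 5 it was 21.8, 6.82, 30.3, 6.78 and 10.8 CPM, and in CKO bleomycin mice 1 to 4 it was 18.1, 74.9, 10.1 and 4.22 CPM. Control PBS mouse 3 and CKO bleomycin mouse 2 again stood far above the rest of their groups, while CKO PBS mouse 3 (30.3 CPM) was nearer to CKO PBS mouse 1 (21.8 CPM).

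The fibroblast marker level moved with both reticulocalbins. The 7 libraries with the highest mean log2 CPM over the 12 fibroblast markers were also the 7 highest for Rcn3 and the 7 highest for Rcn1. Calu shared 5 of its 7 highest libraries with them, Pdia3 and Pdia4 each shared 4, Hspa5, Hsp90b1 and Pdia6 each shared 3, and Calr and Canx each shared 2. With the 5 highest libraries instead, Calu shared all 5, as did Rcn3 and Rcn1. Pdia3 then shared 4, Hsp90b1, Pdia4 and Pdia6 each 3, Canx 2, and Hspa5 and Calr each 1. Sets of 7 among 17 libraries share some members by chance, and the sharing was not tested. The mean fibroblast marker level was 3.07 ± 3.43 log2 CPM in control PBS (n = 4), 8.42 ± 0.29 in control bleomycin (n = 4), 2.92 ± 1.91 in CKO PBS (n = 5) and 3.78 ± 2.72 in CKO bleomycin (n = 4). The lowest control bleomycin library (8.01) was above the highest of control PBS (7.61), CKO PBS (6.02) and CKO bleomycin (6.89). Fits with this level as a covariate therefore cannot separate it well from the group. The part of cell composition in the differences below was not tested.

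**Figure D2:**
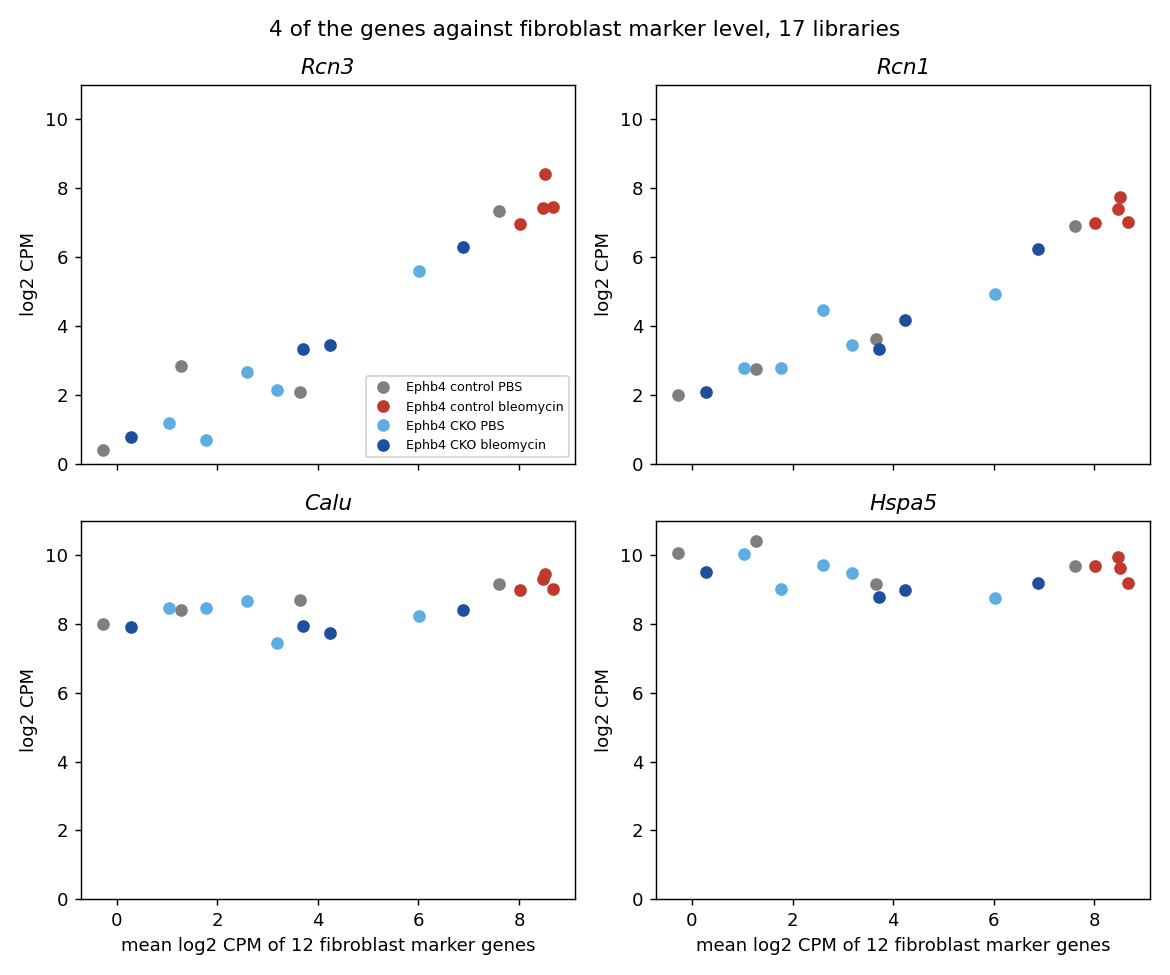
The 4 panels plot log2 CPM of Rcn3, Rcn1, Calu and Hspa5 against the mean log2 CPM of 12 fibroblast markers, with 1 point per library coloured by group. The 7 libraries at the right are the 7 highest for Rcn3 and Rcn1, while Hspa5 has 3 of its 7 highest libraries among them.

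To see which of the genes kept together, the SD over 17 libraries of the log2 CPM difference was taken for each pair, so that a low value means that 2 transcripts moved alike. The smallest was 0.22 between Canx and Pdia3, and Pdia4 and Pdia6 followed at 0.26. Among the 7 chaperones and isomerases, no pair exceeded 0.53 (Hsp90b1 and Calr). Calu was 0.42 from Pdia3 and 0.68 from Calr. Rcn1 and Rcn3 were 0.96 apart, and Rcn3 was 2.41 or more from all 8 others. These are descriptions over libraries that share groups and composition.

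**Figure D3:**
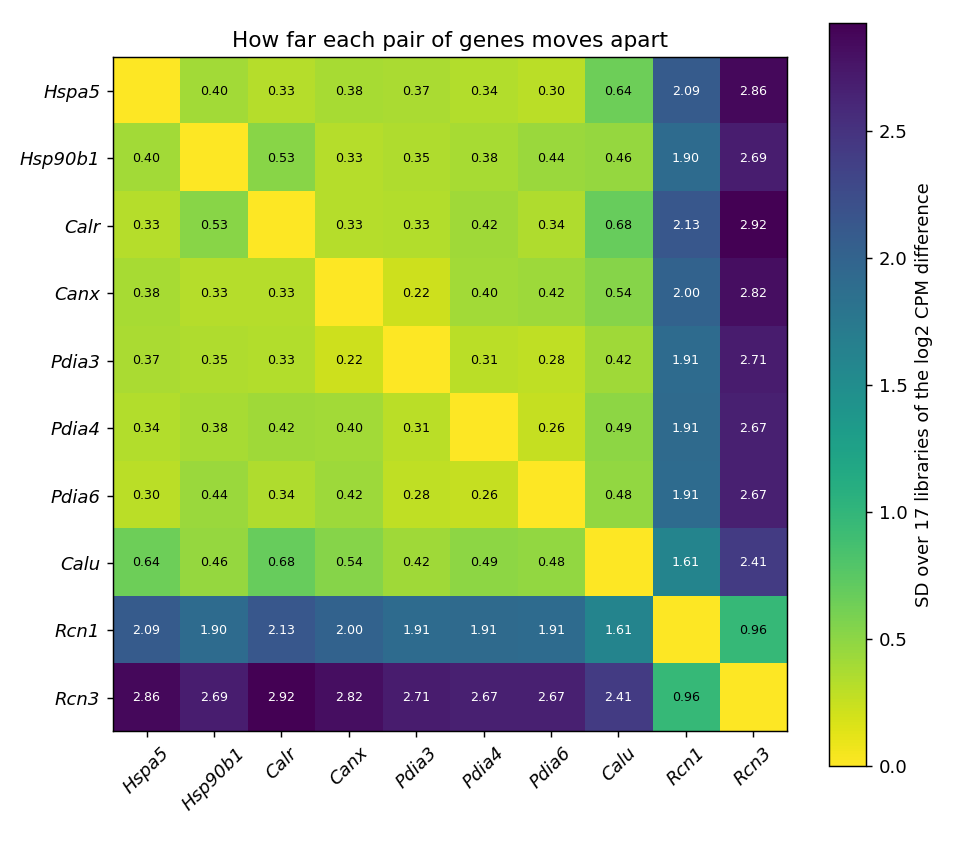
The grid gives, for each pair of the 10 genes, the SD over 17 libraries of their difference in log2 CPM, with low values in yellow. The 7 chaperones and isomerases form a block at or below 0.53, and Rcn3 stands 2.41 or more from every gene but Rcn1, at 0.96.

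The same measure was taken against every other gene tested for 1 gene of each kind. The closest to Hspa5 were Hyou1 (0.24), an Hsp70-related ER chaperone, Manf (0.26), a secreted ER stress protein, and Creld2 (0.27), another ER stress-inducible gene. The closest to Calu were Hdlbp (0.21), which encodes the RNA-binding protein vigilin, Tpm4 (0.24), a tropomyosin, and Ssr3 (0.25), a subunit of the translocon-associated protein complex. The closest to Rcn3 were Ccdc8 (0.55) and BC034090 (0.58), both further off than the genes named for Hspa5 and Calu. Ccdc8 was low, with a median of 6.80 CPM in control bleomycin libraries. Its medians were 0.238 CPM in control PBS, 0.173 in CKO PBS and 0.469 in CKO bleomycin libraries.

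The first comparison, bleomycin against PBS in Ephb4 control mice, asked how fibrotic injury changed these cultures. Rcn1 and Rcn3 had the highest values, 4.5-fold and 4.67-fold higher after bleomycin, and Calu was 1.5-fold higher. The 7 chaperones and isomerases lay between -0.26 and 0.15 on the log2 scale. None of the 10 passed edgeR's quasi-likelihood test at a Benjamini-Hochberg adjusted p of 0.05, and none of the 10481 genes did (0% called). At an unadjusted p under 0.05, the test held 1494 of all genes and 0 of these 10, with 6.28% of all genes in the higher direction. DESeq2, run as an alternative, called 166 genes and 0 of these 10.

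The mean Rcn3 level was 43.5 ± 78.6 CPM after PBS and 203 ± 95.2 after bleomycin (n = 4 each), a log2 fold change of 2.22 ± 1.46 (SE) with an adjusted p of 0.475. For Rcn1, the means were 35.4 ± 55.6 and 159 ± 40.7 CPM, a log2 fold change of 2.17 ± 1.02 with an adjusted p of 0.351. Control PBS mouse 3, the only control PBS library with a high fibroblast marker level, overlapped the bleomycin libraries for Rcn3 and lay just below them for Rcn1. Rcn1 was the only one of the 10 genes whose groups did not overlap, where 5.72% of all genes were higher without overlap. With the fibroblast marker level as a covariate, the log2 fold change was 0.29 for Rcn1 and -0.30 for Rcn3.

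Calu was 416, 336, 568 and 257 CPM in control PBS mice 1 to 4 and 699, 518, 511 and 637 CPM in control bleomycin mice 1 to 4. Its groups overlapped through PBS mouse 3, and its log2 fold change was 0.59 ± 0.278 with an edgeR adjusted p of 0.351. Hspa5 was 567, 1346, 822 and 1063 CPM after PBS and 792, 577, 825 and 974 CPM after bleomycin, and its log2 fold change was -0.26 ± 0.311 (adjusted p = 0.687). The bleomycin libraries of Hspa5 lay inside the range of the PBS libraries. Without the library of control bleomycin mouse 2 and the other 2 with conflicting sex genes, Calu, Rcn1 and Rcn3 had log2 fold changes of 0.66, 2.26 and 2.29. Without control PBS mouse 3, those of Rcn1 and Rcn3 were 4.42 and 5.62. The log2 fold change of Calu was 0.23 with the fibroblast marker level as a covariate, and 0.38 with the macrophage marker level or with the series of animal numbers in the sample titles.

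The second comparison, Ephb4 CKO against control after bleomycin, asked whether loss of Ephb4 altered the cells of injured lungs. All 10 genes had lower means in CKO cultures, where 49.3% of all genes had a log2 fold change below 0, and their median was -0.66 against 0.01 over all genes. Rcn3 and Rcn1 had the lowest values, 8.08-fold and 5.93-fold lower, and Calu was 2.28-fold lower. None passed the adjusted threshold in edgeR, where 0 of 10481 genes (0%) did and 2119 had an unadjusted p under 0.05. At an unadjusted p under 0.05, 6 of the 10 (Hsp90b1, Pdia3, Pdia4, Pdia6, Calu and Rcn1) were lower, where 9.18% of all genes were lower at that p. For 7 of the 10, these 6 and Rcn3, every CKO library was below every control library, where 12.2% of all genes were lower without overlap. DESeq2, run as an alternative, called 399 genes, of which 254 were lower (2.42% of all tested), and 1 of the 10, Calu.

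Calu was 699, 518, 511 and 637 CPM in control bleomycin mice 1 to 4 and 213, 339, 247 and 241 CPM in CKO bleomycin mice 1 to 4. The highest CKO library was 339 CPM and the lowest control library 511. Its log2 fold change was -1.19 ± 0.281, with an adjusted p of 0.187 in edgeR and 0.00589 in DESeq2. Over the 32 alternatives its adjusted p ran from 0.00589 to 1, and it was under 0.05 in the 2 DESeq2 fits only. With the fibroblast and the macrophage marker level as a covariate, its log2 fold change was -0.84 and -0.81. Calu had the 31st smallest p of the 10481 genes in edgeR. The study put Calu into a later panel of genes picked from these same libraries, so its place among the lowest is not independent evidence.

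Rcn3 was 203 ± 95.2 CPM in control bleomycin and 25.2 ± 35.5 in CKO bleomycin libraries (n = 4 each), a log2 fold change of -3.01 ± 1.51 with an edgeR adjusted p of 0.262. Rcn1 was 159 ± 40.7 and 26.9 ± 32.6 CPM, a log2 fold change of -2.57 ± 1.04 with an edgeR adjusted p of 0.222. CKO bleomycin mouse 2 was the CKO library nearest to the controls for both genes, and it also had the highest fibroblast marker level of its group. Leaving it out gave -4.76 for Rcn3 and -3.88 for Rcn1, and leaving out all 3 libraries with conflicting sex genes gave -5.21 and -4.60. With the fibroblast marker level as a covariate, the values were -0.28 for Rcn3 and -0.56 for Rcn1, and with the macrophage marker level they were -1.84 and -1.79. All 12 fibroblast markers tested were lower, with a median of -2.71 on the log2 scale, and the 19 macrophage markers had a median of 1.20. Of 7 smooth muscle and pericyte markers, the 5 tested were also lower (median -2.56), and the list summed to 2708 to 3904 CPM in control bleomycin and 24.3 to 1871 in CKO bleomycin libraries.

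Hsp90b1 was 374, 427, 678 and 849 CPM in control bleomycin mice 1 to 4 and 341, 367, 374 and 323 CPM in CKO bleomycin mice 1 to 4. The lowest control library and the highest CKO library were barely apart, at 373.6 and 373.5 CPM, and the CKO libraries were much closer together than the controls. Its log2 fold change was -0.73 ± 0.299 with an edgeR adjusted p of 0.223. Leaving out control bleomycin mouse 4 gave -0.49.

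Hspa5 was 792, 577, 825 and 974 CPM in control bleomycin mice 1 to 4 and 506, 579, 442 and 732 CPM in CKO bleomycin mice 1 to 4. The groups overlapped, and the log2 fold change was -0.49 ± 0.312 with an edgeR adjusted p of 0.355. Of the lectin chaperones, Calr had the smallest difference of the 10 genes, 921 ± 106 against 838 ± 266 CPM with a log2 fold change of -0.14 ± 0.318 (adjusted p = 0.811). Canx was 603 ± 120 against 498 ± 69.9 CPM, with a log2 fold change of -0.28 ± 0.221 (adjusted p = 0.452). With the fibroblast marker level as a covariate, Hspa5, Calr and Canx had log2 fold changes of -0.93, -0.71 and -0.48, each with an adjusted p of 1. These values moved the opposite way to those of the reticulocalbins, which came nearer to 0. The marker level did not overlap between these groups, so the shifts cannot be read as effects within a cell type.

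The 3 disulfide isomerases were lower without overlap between the groups. Pdia6 was 401, 246, 256 and 307 CPM in control bleomycin mice 1 to 4 and 161, 180, 152 and 240.4 CPM in CKO bleomycin mice 1 to 4, a log2 fold change of -0.72 ± 0.266. Pdia4 ran from 218 to 279 CPM in controls and from 142 to 180 in CKO libraries, with a log2 fold change of -0.59 ± 0.228. Pdia3 ran from 282 to 375 CPM in controls and from 209 to 277 in CKO libraries, with a log2 fold change of -0.47 ± 0.170. Each of the 3 had an adjusted p of 0.218 in edgeR. Together with Canx, they had the 4 smallest SDs within groups among the 10 genes, and their unadjusted p-values were 0.0161, 0.0198 and 0.0148 in the order given.

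**Figure D4:**
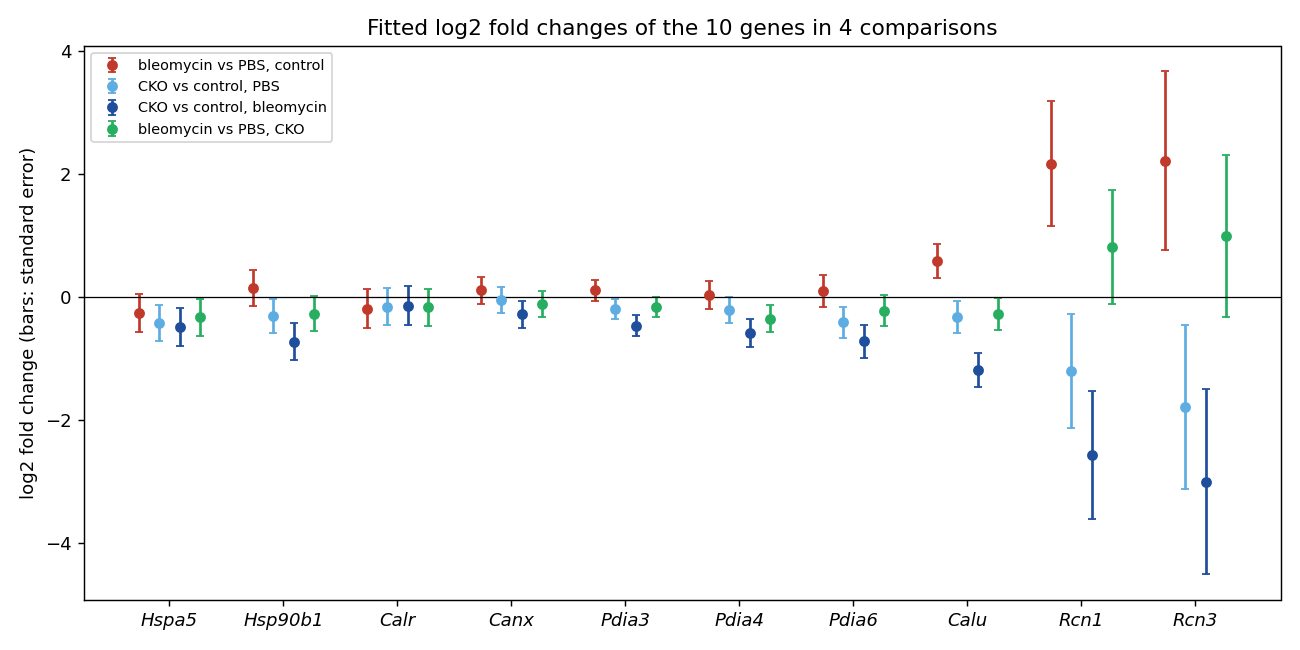
Points are fitted log2 fold changes from edgeR for the 10 genes in 4 comparisons, and bars are standard errors. The CKO against control values after bleomycin are below 0 for all 10 genes, from -0.14 for Calr to -3.01 for Rcn3, and the bars of Rcn1 and Rcn3 span about 1 or more log2 units on each side.

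The ratio of 2 of the genes inside a library does not depend on how the libraries were scaled. Ratios here were taken from CPM with no correction for gene length, so they serve to compare libraries. The log2 ratio of Calu to Hspa5 was -0.41 ± 0.28 in control bleomycin (n = 4, from -0.69 to -0.16) and -1.12 ± 0.39 in CKO bleomycin libraries (n = 4, from -1.61 to -0.77). It was -1.26 ± 0.89 in control PBS (n = 4) and -1.15 ± 0.66 in CKO PBS (n = 5). Calu was thus closest to Hspa5 in the control bleomycin libraries, and those did not overlap the CKO bleomycin libraries, although libraries of both PBS groups overlapped them. The pair was chosen after its values were seen, and the ratio is given with no test.

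The other genes of the same pathways showed how far the pattern went after bleomycin. Of 30 other ER folding enzymes and cochaperones, 29 were tested, 20 were lower in CKO cultures, and 7 lower against 1 higher had an unadjusted p under 0.05. Their median log2 fold change was -0.12. The lowest were Serpinh1 (-3.21), the collagen-specific chaperone HSP47, and Pdia5 (-2.0), another disulfide isomerase, and the highest were Sdf2l1 (0.72), a cochaperone of BiP, and Ero1lb (1.06), an oxidase that recharges disulfide isomerases. Serpinh1 was 1207 ± 344 CPM in control bleomycin and 131 ± 118 in CKO bleomycin libraries (n = 4 each). The 2 other CREC genes had log2 fold changes of -0.70 for Rcn2 (adjusted p = 0.228) and 0.18 for Sdf4 (adjusted p = 0.762). Thus 4 of the 5 CREC genes listed, all but Sdf4, were lower, where 49.3% of all genes had a log2 fold change below 0. None of the 5 passed the adjusted threshold in edgeR.

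The sensors and transcription factors of the unfolded protein response did not share 1 direction. Of 16 tested, 9 were lower and 7 higher, with a median log2 fold change of -0.19, and 5 lower and 1 higher had an unadjusted p under 0.05. The lowest were Creb3l1 (-2.48), an ATF6-like factor of secretory cells, and Trib3 (-1.39), a pseudokinase induced by ER stress, and the highest were Atf6b (0.39) and Atf3 (2.14), a general stress-response factor. The main arms lay on both sides of 0. Their log2 fold changes were 0.09 for Xbp1, 0.33 for Atf6, 0.25 for Ern1, which encodes IRE1, and -0.27 for Eif2ak3, which encodes PERK. They were -0.11 for Atf4 and 0.08 for Ddit3, which encodes CHOP. Their adjusted p-values ran from 0.332 for Atf6 to 0.953 for Ddit3. Messenger levels do not show Xbp1 splicing or ATF6 cleavage, which were not measured here.

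Of 14 genes of ER-associated degradation, 12 were tested, 7 were lower and the median log2 fold change was -0.03, from Ube2j1 (-0.42) and Erlec1 (-0.32) to Edem1 (0.42) and Edem2 (1.07). Of 22 cytosolic and mitochondrial chaperones, 19 were lower with a median of -0.26, from Stip1 (-0.66), an Hsp70 and Hsp90 cochaperone, and Hsph1 (-0.54) to Trap1 (0.15) and Hspa4l (0.27), and 3 had an unadjusted p under 0.05, all lower. None of the genes in these lists passed the adjusted threshold in edgeR.

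**Figure D5:**
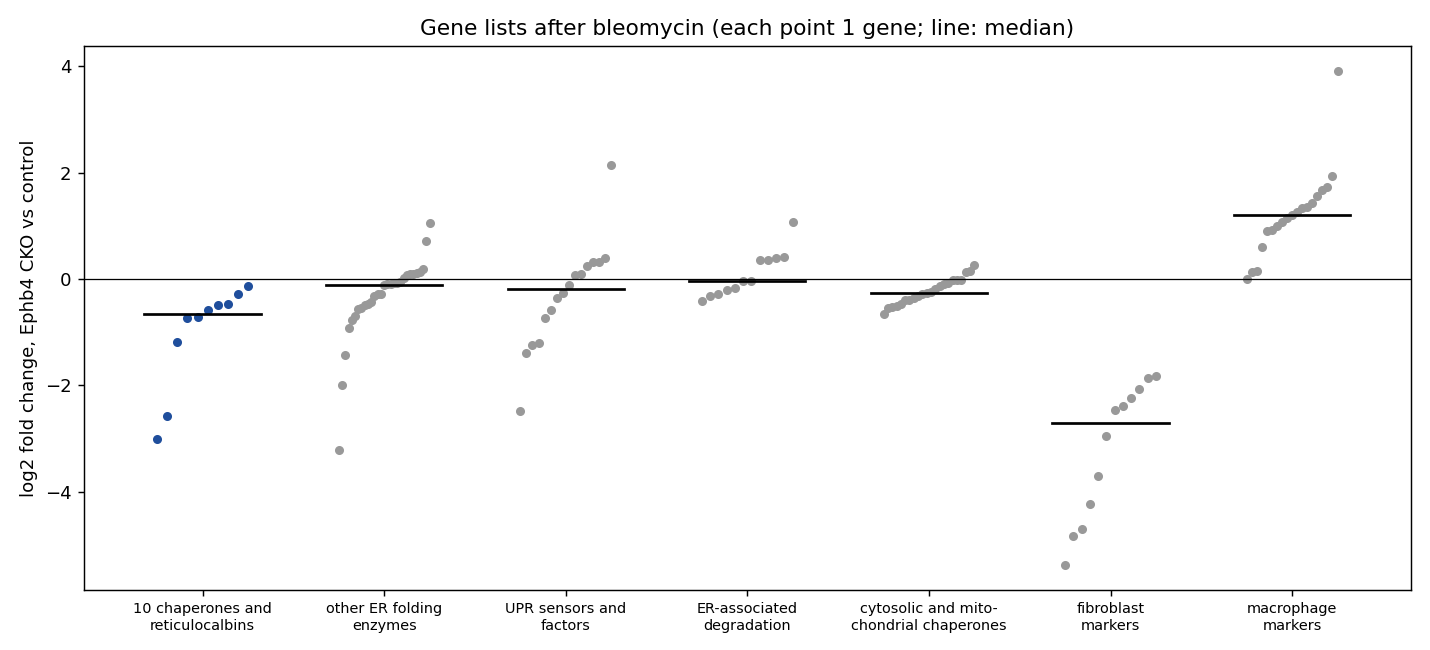
Each point is the log2 fold change of 1 gene in Ephb4 CKO against control cultures after bleomycin, and each line is the median of its list. The 10 chaperones and reticulocalbins have a median of -0.66, between the fibroblast markers at -2.71 and the other ER folding enzymes at -0.12, and the macrophage markers have a median of 1.20.

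Genes that carry the exact ERSE lay on both sides of 0. The 39 windows belonged to 37 genes, of which 12 were tested and 5 were of the 10 described here. After bleomycin, 8 of the 12 were lower in CKO cultures and the median was -0.22 on the log2 scale. The 7 others were Dnajc3 (-0.56), which encodes a BiP cochaperone, Creld2 (-0.29), Syvn1 (-0.17), which encodes the degradation ligase HRD1, Pan2 (0.05), Hnrnpa3 (0.23), Alg12 (0.29) and Adcy3 (0.67), with a median of 0.05. Of the 3 lowest of the 10 genes described here, Rcn3 and Calu had no exact or near match. Rcn1 had no window, so it could not be searched. A link between the element and the size of a change was not tested.

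After PBS, the means of all 10 genes were also lower in Ephb4 CKO than in control cultures, where 53.6% of all genes had a log2 fold change below 0. The differences were small for the chaperones, from -0.05 for Canx to -0.42 for Hspa5, and the median of the 10 was -0.31. Calu was 394 ± 133 CPM in control PBS (n = 4) and 316 ± 88.3 in CKO PBS libraries (n = 5), a log2 fold change of -0.32 ± 0.262. For Rcn1 and Rcn3, the log2 fold changes were -1.21 ± 0.931 and -1.79 ± 1.34, and without control PBS mouse 3 they were 1.02 and 1.57. One library therefore set the direction for both reticulocalbins. Every adjusted p was 1 in edgeR, 0% of genes were called, 209 had an unadjusted p under 0.05, and 0 of the 10 had an unadjusted p under 0.05, where 0.563% of all genes were lower at that p. DESeq2 called 1 gene, which was not among the 10.

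In Ephb4 CKO mice, bleomycin against PBS gave log2 fold changes from -0.35 for Pdia4 to -0.12 for Canx in the 8 genes other than the reticulocalbins, where 55.8% of all genes were below 0. Calu had a log2 fold change of -0.28 ± 0.264, against 0.59 ± 0.278 in control mice. Rcn1 and Rcn3 had 0.81 ± 0.928 and 1.00 ± 1.32, and without CKO bleomycin mouse 2, one of the libraries with conflicting sex genes, they had -0.50 and -0.74. No gene was called in edgeR (0%), 101 had an unadjusted p under 0.05, DESeq2 called 1 gene that was none of the 10, and every adjusted p of the 10 was 1.

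The difference between the 2 responses to bleomycin was tested as the interaction of genotype and treatment. Genotype here means CKO (4-hydroxytamoxifen) or control (corn oil). In the interaction, 0 of 10481 genes passed in edgeR (0%), 363 had an unadjusted p under 0.05, and DESeq2 called 0. Of the 10 genes, Calu alone had an unadjusted p under 0.05, where 1.57% of all genes were lower at that p. Its interaction was -0.87 ± 0.384 on the log2 scale, with an adjusted p of 0.916 in edgeR. Calu had a positive response in control mice and a negative one in CKO mice, but neither passed the threshold. For Rcn1 and Rcn3 the interactions were -1.36 ± 1.36 and -1.23 ± 1.94, and for Hspa5 it was -0.07 ± 0.429. Leaving out control PBS mouse 3 gave -3.58 for Rcn1 and -4.57 for Rcn3, and leaving out CKO PBS mouse 3 gave -0.96 and 0.57. The comparisons above share control libraries, so their values for a gene are not independent of each other.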

How the data were processed

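The deposited table holds 1 raw read count per gene and library. The authors made it from paired reads of 75 bases (stranded total RNA libraries, ribosomal RNA depleted) that were trimmed with cutadapt, aligned to GRCm38 with HISAT2 2.1.0 with the strand set, and summed per gene with StringTie. Libraries were sequenced in 2 runs, and which library was in which run is not given in the sources used here. Every count column matched 1 sample title, and no column was left over (0 unmapped). Depth was 66540022 to 120554468 counts a library, so counting error is small beside the spread between mice.

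From these counts, genes with a CPM above 10 in at least 2 libraries (10481) were scaled by TMM and fitted with edgeR 4.0.16 (glmQLFit and glmQLFTest, R 4.3.3), 1 coefficient for each of the 4 groups, all 17 libraries in the fit and p-values adjusted after Benjamini and Hochberg at 0.05. CPM and FPKM in the text use the TMM scaling, FPKM the union of GENCODE exons. The SE is the fold change divided by the square root of the test's F. Alternatives were DESeq2 1.42.0, limma 3.58.1 with voom, other scalings and filters, covariates, and leaving out libraries. Fits were also run on simulated counts, and the outcome, including the power to find changed genes, is not reported here. Replicates are separate mice.

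The genes, lists and tests were chosen with earlier results of these data known. Named in the text were all 10 genes, the 2 lowest and 2 highest of each other folding, stress, degradation and chaperone list after bleomycin, Rcn2, Sdf4, Xbp1, Ddit3, Atf4, Atf6, Ern1 and Eif2ak3, and the 3 genes closest to each of Hspa5, Calu and Rcn3, of which 1 is not reported here. The genes with an exact ERSE and the ratio of Calu to Hspa5 were added after values were seen. Of the lists, Uggt2, Derl3 and a further Ddit3 identifier did not pass the filter, and Hm13 had no row under its symbol. Markers of 4 other cell types (endothelial, epithelial, smooth muscle and pericyte, and lymphocyte and plasma cells) were summed too: per library they came to 32.5 to 329 CPM, 25.5 to 2142 CPM, 7.96 to 3904 CPM and 0.0804 to 37.0 CPM.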

Additional observations from a re-analysis of the deposited data

Results flagged for a closer look

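Pdia6 in Ephb4 control PBS mouse 1 stood apart from its group, at 159 CPM where the other 3 libraries were 314 to 330 CPM. Its gap to the nearest of them was 0.932 of the range of the group on the log2 CPM scale, which passed Dixon's limit for 4 samples. This was 1 of 40 gene and group pairs tested, and chance alone marks about 1 in 20. Without that library, the log2 fold change of Pdia6 for bleomycin against PBS in control mice was -0.10, against 0.10 with it.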

How the results depend on the processing

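Of 320 values of the 10 genes in Ephb4 CKO against control after bleomycin, over 32 alternatives (17 of which left out 1 library), 0 changed sign and 2 passed the threshold, both for Calu in DESeq2. The median log2 fold change over the 10 genes moved by less than 0.233 in all 5 comparisons. That limit is the SD within groups of each library's median log2 CPM over the 10 genes, which is a level and not a fold change. It is coarse, since it exceeds the size of the median itself for bleomycin against PBS in control mice (0.11) and in CKO mice (-0.19). DESeq2 called 166, 1, 399 and 1 genes for bleomycin against PBS in control mice, CKO against control after PBS, CKO against control after bleomycin, and bleomycin against PBS in CKO mice, where edgeR called 0, and 1 of the 10 genes (Calu) in the third. With the 2 sorted stretches of count columns as a covariate, an alternative added after seeing the data, it called 231 genes in the first, 387 in the third with 1 of the 10, 1 in the fourth and 1 in the interaction. With the macrophage score (the mean log2 CPM of its markers) as a covariate, 2 of the 10 genes had an unadjusted p under 0.05 in the third, against 6, and 427 of all 10481 genes did, against 2119. With the fibroblast score, 5 of the 10 (Hspa5, Calr, Pdia3, Pdia6 and Calu) and 403 of all genes did. The causes were not tested.

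The animal number series was taken from the sample titles, whose numbers fall into 2 series. It was unbalanced, since all 4 control bleomycin mice were in one series and 3 of the 4 control PBS mice in the other. Signs that changed were of small or widely spread differences. In bleomycin against PBS in control mice, Canx was 0 with the animal number series as a covariate, Pdia4 -0.02 and Pdia6 -0.05 with the macrophage score, and Hspa5 0.27, Calr 0.50 and Rcn3 -0.30 with the fibroblast score. In CKO against control after PBS, Rcn1 was 0.02 with the fibroblast score. In bleomycin against PBS in CKO mice, Rcn1 was -0.29 with the fibroblast score, and Rcn1 and Rcn3 were -1.13 and -1.12 without the 3 libraries with conflicting sex genes. In the interaction, Calr was -0.06 with limma voom, -0.01 with filterByExpr, -0.11 with sex, -0.09 with the animal number series, -0.06 with the macrophage score and -0.58 with the fibroblast score, with which Rcn3 was 0.51.

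Leaving out 1 library at a time gave 0 to 2 called genes for bleomycin against PBS in control mice (2 without CKO bleomycin mouse 2) and 0 to 1 for CKO against control after bleomycin (1 without control bleomycin mouse 2). In the first of these, log2 fold changes ran from -0.09 to 0.34 for Hsp90b1, -0.33 to 0.16 for Calr, -0.12 to 0.21 for Pdia4, -0.10 to 0.19 for Pdia6, 1.80 to 4.42 for Rcn1 and 1.82 to 5.62 for Rcn3, the last 2 highest without control PBS mouse 3. In CKO against control after PBS, they ran from -0.35 to 0.19 for Calr, -0.16 to 0.07 for Canx, -1.62 to 1.02 for Rcn1 and -3.60 to 1.57 for Rcn3, the last 2 highest without control PBS mouse 3. In bleomycin against PBS in CKO mice, they ran from -0.40 to 0.03 for Calr, -0.50 to 1.20 for Rcn1 and -0.74 to 2.78 for Rcn3, the last 2 lowest without CKO bleomycin mouse 2. In the interaction, they ran from -0.31 to 0.12 for Hspa5, -0.32 to 0.19 for Calr, -3.58 to -0.96 for Rcn1 and -4.57 to 0.57 for Rcn3. The number of genes at an unadjusted p under 0.05 moved by more than 1.5 times in all 5 comparisons. For bleomycin against PBS in control mice it ran from 743 (without control PBS mouse 2) to 2558 (without control PBS mouse 3), against 1494. For CKO against control after PBS it ran from 71 (without CKO PBS mouse 5) to 702 (without control PBS mouse 4), against 209. For CKO against control after bleomycin it ran from 1031 (without control bleomycin mouse 1) to 2433 (without control PBS mouse 4), against 2119. For bleomycin against PBS in CKO mice it ran from 31 (without CKO bleomycin mouse 2) to 283 (without CKO PBS mouse 3), against 101, and in the interaction from 157 (without CKO bleomycin mouse 4) to 1209 (without control PBS mouse 3), against 363. No paired analysis was possible because the mice are numbered here in listing order, and although some titles share an animal number across groups, no label says what a shared number means.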
